A study of Mus musculus with 4 samples.

Results

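The endothelium decides which leukocytes stop at a vessel wall, and 8 genes of that contact surface were followed in lung endothelial cells (ECs) with and without deletion of ADAR1, an enzyme that converts adenosine to inosine in double-stranded RNA. The genes were chosen by symbol, and all 8 were found among the 24421 genes of the count table. They were the immunoglobulin-type adhesion receptors Icam1, Icam2 and Vcam1, the selectins Sele and Selp, the checkpoint ligand Cd274 (PD-L1), the co-stimulatory receptor Cd40 and the "do not eat me" ligand Cd47. A further 1255 of the 1205261 rows in the table of candidate editing sites carried one of these 8 names.

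Selectins slow leukocytes so that they roll along the vessel, and ICAM-1 and VCAM-1 then bind leukocyte integrins and bring the cells to a stop. Icam1, Vcam1 and Sele are low in resting endothelium and are known to rise with inflammatory cytokines, whereas ICAM-2 is present without stimulation. P-selectin protein is stored in granules. PD-L1 restrains T cells through PD-1 and is a known interferon target, CD40 receives a signal from activated T cells, and CD47 restrains phagocytes through SIRPα.

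RNA was taken from cultured lung ECs of 2 inducible ADAR1 knockout (i-KO) male C57/BL6 mice, aged 2 weeks and from separate litters. Cells of each mouse were split into an untreated dish (CON) and a dish given tamoxifen as 4-hydroxytamoxifen (TM), which gave 4 libraries (EC1 and EC2 name the mice), with n = 2 for each group. All 4 cultures carried the floxed ADAR1 alleles and the inducible Cre, whose promoter is not given in the sources used here, so that exposure to tamoxifen and loss of ADAR1 cannot be told apart. The cells had been selected with antibodies to CD31 and then to ICAM-2, so Icam2 itself was a selection marker.

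Deletion was checked at Adar, the targeted gene. At listed sites in exons 12 to 15, the floxed part, the median depth was 109 and 116 reads per 1e8 library reads in EC1 CON and EC2 CON, no site was listed in EC1 TM, and the depth was 26.5 in EC2 TM. In exons 2 to 11 the depth was 115 and 122 in CON and 504 and 466 in TM. The floxed part therefore stood at 0.951 and 0.954 of the earlier exons in CON and at 0.0569 in EC2 TM. All 12 endothelial markers had listed exonic sites in every library, with summed scaled depths of 24885 in EC1 CON, 31178 in EC2 CON, 21426 in EC1 TM and 23148 in EC2 TM. The 12 leukocyte markers summed to only 21.6 to 40.3, and 7 of them had no exonic site in any library.

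Each gene was read in 2 ways. The count table held raw read counts per gene, and its libraries totalled 133078922 reads in EC1 CON, 143534442 in EC2 CON, 131796753 in EC1 TM and 207323870 in EC2 TM. Between 0.823% and 0.858% of these reads had been assigned to a gene, so the counts of the 8 genes were small. The site table gave the number of reads at single bases where an altered base had been called. The median depth over a gene's exonic sites, scaled to 1e8 library reads, was used as a second, per-base level. Icam2 shows how far the readouts lay apart, with a median exonic base 738.5 reads deep in EC1 CON beside 8 counts for the gene. The library kit is known to keep strand, and the counting tool at its default counts reads of 1 strand only, so the gene counts may hold reads from the strand opposite to the gene. This was not tested, and it applies to every count given here, whereas the depth at sites covers both strands.

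By scaled exonic depth the 8 genes covered a wide range of levels. Among the 6836 genes with at least 3 listed exonic sites in every library, Selp stood at percentile 95.7, Cd47 at 95.6, Icam2 at 88.0, Icam1 at 75.6, Vcam1 at 28.9 and Sele at 10.6. In CON the order was Selp, Cd47, Icam2, Icam1, Vcam1 and Sele, and the ranges of the 2 libraries overlapped only between Vcam1 and Sele. In TM it was Cd47, Selp, Icam2, Icam1, Cd274, Vcam1 and Sele, and the ranges overlapped only between Icam2 and Icam1. Cd40 was at the limit of detection, with counts of 1 in EC1 CON, 0 in EC2 CON, 0 in EC1 TM and 2 in EC2 TM. Its listed exonic sites were a single one in EC1 CON, 21 reads deep, and a single one in EC1 TM, 16 reads deep, so no difference was detectable at this depth.

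**Figure D1:**
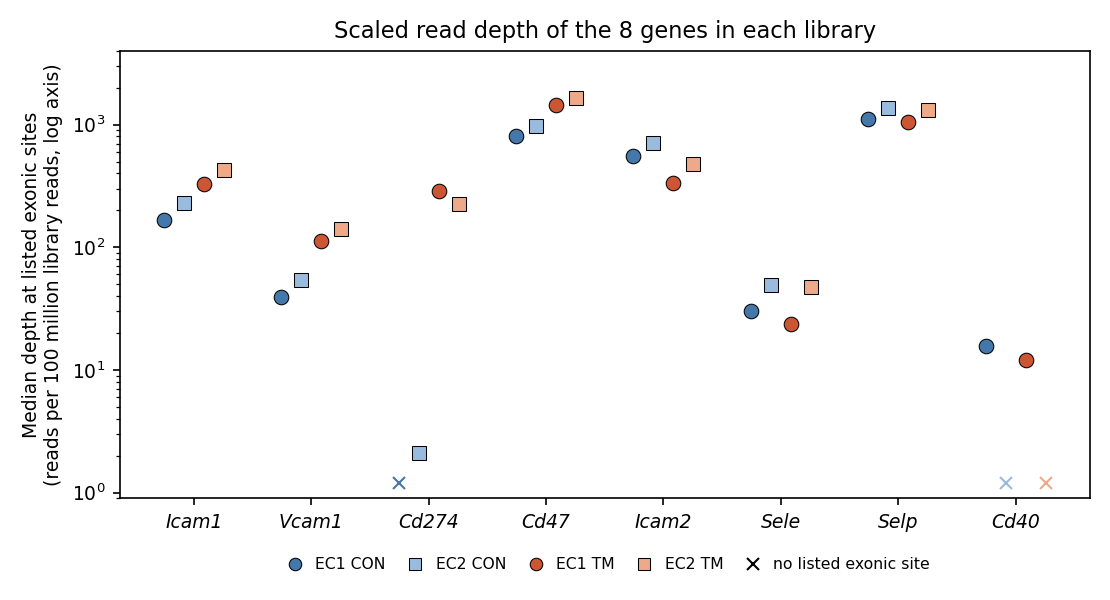
Median read depth at listed exonic sites of each gene in each library, in reads per 1e8 library reads on a log axis. Points are single libraries and crosses mark libraries with no listed exonic site. Icam1, Vcam1 and Cd47 lie higher in both TM libraries, as for 27.2% of all genes tested. Cd274 runs from 2.09 in EC2 CON to 224 in EC2 TM, and Sele and Selp overlap between the groups.

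The 2 groups were compared for all 8 genes. With gene counts (edgeR quasi-likelihood test), 5 of the 8 genes passed the filter on low counts and 1, Cd274, was called higher in TM, where 4.39% of 7899 genes were called higher and 3.35% lower. Cd274 had no counts in CON and passed that filter through TM alone, so by counts it could only be called higher. With exonic depth (limma), 6 of the 8 had enough sites and 2, Icam1 and Vcam1, were called higher, where 6.39% of 6836 genes were called higher and 5.44% lower. That background turned with single CON libraries, from 334 higher and 578 lower without EC1 CON to 679 higher and 228 lower without EC2 CON. No gene of the 8 was called lower in either test. The CON and TM cells of a number came from the same mouse, and with the mouse as a block 3 of the 6 genes tested by depth, Icam1, Vcam1 and Cd47, were called higher and 1, Icam2, lower, beside 9.7% of all genes in each direction.

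Cd274 (chr19:29367455-29388095, plus strand, mm10) was the gene that differed most. Its counts were 0 in EC1 CON, 0 in EC2 CON, 34 in EC1 TM and 39 in EC2 TM. Counted reads were thus seen only in the TM libraries, and against a floor of 3 counts per CON library the level was at least 11.3-fold higher in EC1 TM and at least 8.93-fold higher in EC2 TM. The edgeR quasi-likelihood test gave a Benjamini-Hochberg adjusted p of 1.21e-05. Cd274 passed the low-count filter only through TM, so the direction of this call was fixed by the filter. Which strand these counts came from was not tested, and the call rests on them, since too few CON sites were listed for a test by depth. The annotation places 511 exonic bases of Cd274 opposite an exon of another gene.

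The site table gave the same picture base by base. Cd274 had 0 listed exonic sites in EC1 CON, 1 in EC2 CON, 30 in EC1 TM and 33 in EC2 TM. The median depths were 3 reads in EC2 CON, 381 in EC1 TM and 464 in EC2 TM. At the only exonic site listed in both libraries of a mouse, the depth was 3 reads in EC2 CON and 481 in EC2 TM. In TM the exon sites had median depths of 439 and 506 reads, the 3′ UTR sites 293 and 364, and the intron sites 28 and 32. At least 30 listed exonic sites in both TM libraries were found for 1097 genes, and 5 of these had at most 1 in both CON libraries, namely Cd274 and the interferon-inducible genes Gbp5, Ifit1bl1, Mx1 and Zbp1. The reverse pattern was found for 0 of the 927 genes with at least 30 sites in both CON libraries. These limits were set from the values of Cd274 after they were seen.

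**Figure D2:**
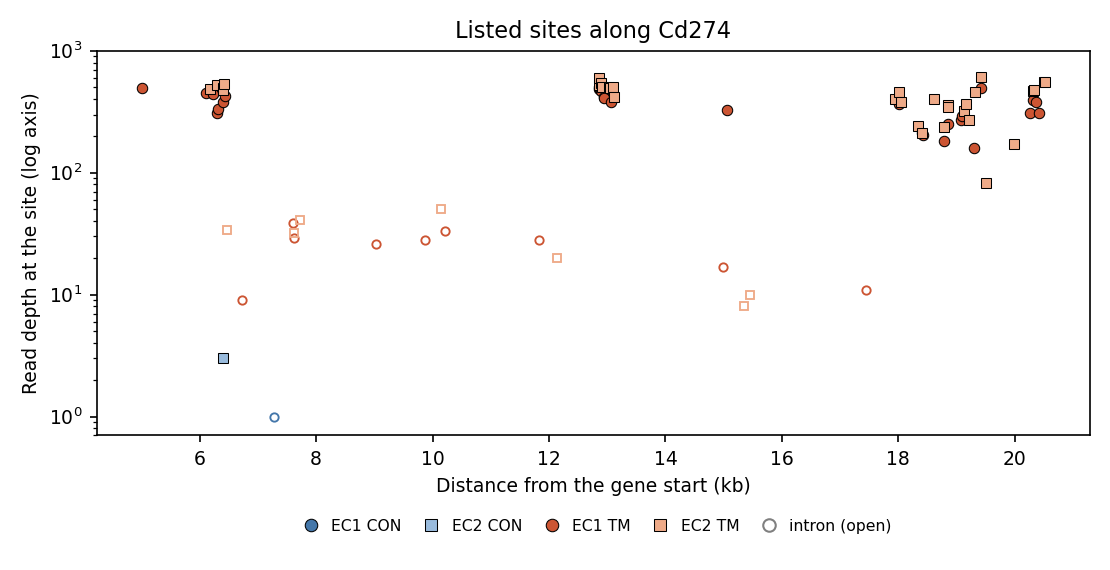
Read depth, on a log axis, at every listed site of Cd274 against its distance in kb from the gene start. Filled points are exonic and open points intronic. Exonic sites of EC1 TM and EC2 TM fill the exons and the 3′ UTR at depths mostly above 100 reads, and the only exonic site of a CON library is 3 reads deep.

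The promoters of Cd274 and Icam1, the pair of called genes with an entry in the RefSeq promoter table (GRCm38.p6), are shown because both genes are known cytokine targets. Each window holds 250 bases before the start and 50 after it. Positions count from the start of the promoter entry, which for both genes lies upstream of the annotated gene start given in this report. The NF-κB pattern was searched on the written strand only, and the other motifs on both strands. Capitals mark matches to 5 motifs: the interferon-stimulated response element (TTTC, any 2 bases, TTTC), the gamma-activated site (TTCNNNGAA), a strict NF-κB pattern (GGG, a purine, any 2 bases, 2 pyrimidines, CC), the GC box (GGGCGG) and the TATA box (TATAAA).
Cd274 promoter, chr19:29367188-29367487, plus strand: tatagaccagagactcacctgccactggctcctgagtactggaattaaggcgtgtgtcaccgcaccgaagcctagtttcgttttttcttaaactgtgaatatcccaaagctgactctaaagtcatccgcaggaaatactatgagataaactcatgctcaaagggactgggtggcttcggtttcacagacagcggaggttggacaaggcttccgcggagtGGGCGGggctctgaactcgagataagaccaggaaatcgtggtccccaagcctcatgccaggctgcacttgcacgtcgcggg
Icam1 promoter, chr9:21015690-21015989, plus strand: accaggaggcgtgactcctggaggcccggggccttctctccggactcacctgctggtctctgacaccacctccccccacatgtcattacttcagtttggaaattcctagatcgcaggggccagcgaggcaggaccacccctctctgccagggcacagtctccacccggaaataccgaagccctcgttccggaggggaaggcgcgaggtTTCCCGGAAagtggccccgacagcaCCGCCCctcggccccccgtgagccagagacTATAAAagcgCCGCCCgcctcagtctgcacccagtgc
The Icam1 window held a gamma-activated site letter match at position -42 from the start, GC boxes at -17 and 24 and a TATA box at 14. The Cd274 window held a GC box at -31 and no letters of the other motifs. Among 5 of the 8 genes with a promoter in the table, Sele also held a gamma-activated site match, at -140. No window held the letters of the response element or, on the written strand, of the strict NF-κB pattern, which looser NF-κB sites do not match. Of all 32851 promoters of this length, 8.3% held the gamma-activated site, 3.44% the response element, 5.89% the strict NF-κB pattern on the written strand, 35.7% the GC box and 13.6% the TATA box. A match is only a run of letters, and occupancy was not measured.

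Vcam1 (chr3:116109949-116129688, minus strand), whose protein holds integrin-bearing lymphocytes and monocytes, had the larger of the depth differences. Its median exonic depth was 52 reads in EC1 CON, 78 in EC2 CON, 148 in EC1 TM and 294.5 in EC2 TM. Scaled to 1e8 library reads this was 39.1, 54.3, 112 and 142, or 46.7 ± 10.8 in CON and 127 ± 21.0 in TM (SD, n = 2). Both TM libraries lay above both CON libraries, as for 27.2% of all genes tested. The level was 2.87-fold higher with TM in EC1 and 2.61-fold higher in EC2, and limma gave a log2 difference of 1.45 (SE 0.30) with an adjusted p of 0.000868. Listed sites differed between libraries, and the 5′ UTR, deep in TM, had no listed site in CON. Over 2 sites seen in CON and TM of one mouse, the median log2 difference was 1.58 in EC1 and 0.92 in EC2. With only sites listed in all 4 libraries it was 1.28. How far the choice of sites enters the fold was not tested. Leaving out any one library kept the call, with limma adjusted p between 8.42e-05 and 0.0445. The counts of 6, 6, 11 and 16 gave a log2 fold change of 0.80 (SE 0.67) that did not pass (edgeR adjusted p = 0.561).

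Depth along Vcam1 was uneven. In EC2 TM the median depth was 880.5 reads in the 5′ UTR and 1262 in the coding part of exon 1, 542 in exon 2, 382 in exon 3, 327 in exon 4 and 194 in exon 5. It was 202 at the single coding site of exon 9 and 170.5 in the 3′ UTR. Exons 1 to 4 had a median depth of 111 reads in EC1 CON, 194 in EC2 CON, 325 in EC1 TM and 542 in EC2 TM. Exons 5 to 9 had 29.5, 70, 110 and 190.5 reads in the same libraries. The 5′ part was thus 3.76, 2.77, 2.95 and 2.85 times as deep as the 3′ part, in CON as well as in TM. The scaled depth was higher with TM in both parts, 2.96-fold and 1.93-fold in exons 1 to 4 of EC1 and EC2, and 3.77-fold and 1.88-fold in exons 5 to 9. Split at the middle of the gene span, the 5′ side of Vcam1 exceeded its 3′ side by more than in 98.3% of the 2035 genes with at least 3 sites on each side in every library, where Icam2, Selp and Cd47 stood at percentiles 39.4, 35.5 and 41.0. The annotation holds a short Vcam1 transcript that shares exons 1 to 4 and ends within the next intron, but the table listed only 1 site in that extra exon, 28 reads deep in EC1 TM. How far short transcripts account for the slope was not tested, and the split at exon 4 was chosen after the values were seen.

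**Figure D3:**
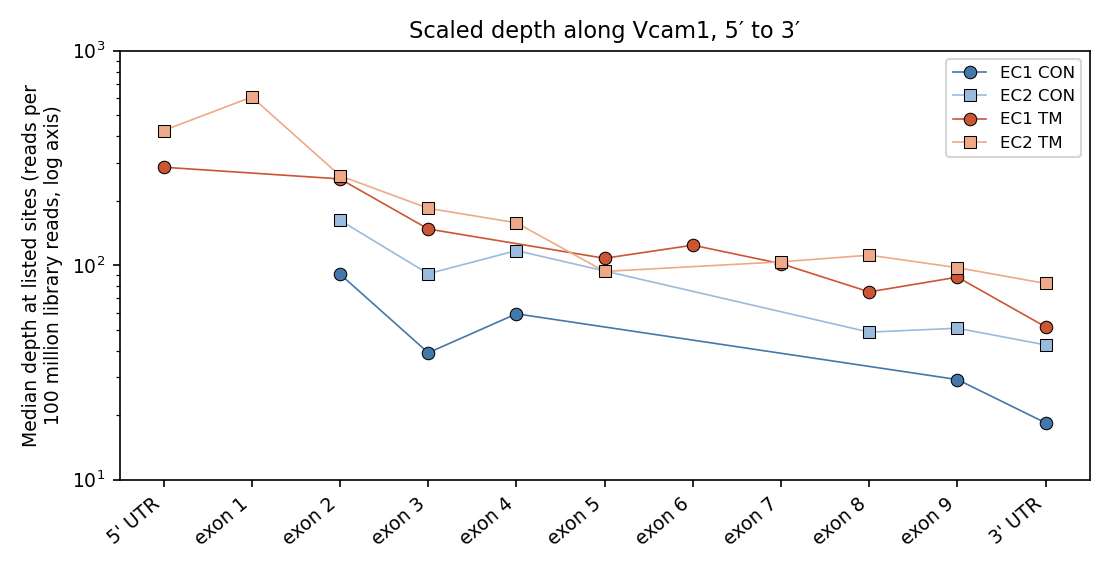
Median scaled depth of Vcam1 (reads per 1e8 library reads, log axis) by exon from 5′ to 3′, with lines joining the exons that had a listed site in a library. In each library the 3′ UTR lies lower than exon 2, and both TM lines lie above both CON lines wherever all 4 libraries have a value.

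Icam1 (chr9:21015985-21028817, plus strand), the ligand of the integrin LFA-1, had a smaller depth difference. Its median exonic depth was 224 reads in EC1 CON, 327 in EC2 CON, 429 in EC1 TM and 892.5 in EC2 TM, over 9, 19, 29 and 46 listed sites. The scaled levels were 168, 228, 326 and 430, or 198 ± 42.1 in CON and 378 ± 74.2 in TM (SD, n = 2). The groups did not overlap, with TM above CON as for 27.2% of all genes tested. The level was 1.93-fold higher in EC1 and 1.89-fold higher in EC2, with a log2 difference of 0.93 (SE 0.28) and a limma adjusted p of 0.0278. The call rested on single libraries, since limma adjusted p became 0.108 without EC1 CON, 0.168 without EC1 TM and 0.510 without EC2 TM. It was 0.00405 without EC2 CON and 0.00955 with the mouse as a block.

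The 3′ UTR sites of Icam1 taken alone rose from 129 and 246 to 416 and 472 per 1e8 library reads (limma log2 difference 1.31, adjusted p = 0.0222). Its intron sites were at 4.51 and 4.88 in CON and 7.59 and 9.16 in TM, a difference that did not pass (limma adjusted p = 0.992). Counts were 9, 11, 20 and 18, higher in both TM libraries as raw numbers, with a log2 fold change of 0.61 (SE 0.58, edgeR adjusted p = 0.619). The annotation places 511 exonic bases of Icam1 opposite another gene.

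Cd47 (chr16:49800533-49915010, plus strand), which signals to SIRPα on phagocytes, was abundant in both groups. Its median exonic depth was 1070 reads in EC1 CON, 1403 in EC2 CON, 1915.5 in EC1 TM and 3442 in EC2 TM. The scaled levels were 804 and 977 in CON and 1453 and 1660 in TM. Both TM libraries lay above both CON libraries, as for 27.2% of all genes tested. The ratio was 1.81 in EC1 and 1.70 in EC2, and the log2 difference of 0.81 (SE 0.30) did not pass with limma (adjusted p = 0.0807) but did with the mouse as a block (limma adjusted p = 0.0123). Without EC2 CON the call was also made (limma adjusted p = 0.0269). Sites seen in CON and TM of one mouse gave medians of 0.81 over 8 sites in EC1 and 0.75 over 6 sites in EC2 on the log2 scale. Counts of 22, 21, 38 and 50 gave 0.69 (SE 0.42, edgeR adjusted p = 0.377).

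The long 3′ UTR of Cd47 differed less between the groups than its coding exons. The last exon (chr16:49910869-49915010) reaches past 49911091, where the shorter transcripts end. Up to that base its depth followed the coding exons, at 1.02, 0.954, 1.01 and 0.935 of their depth in EC1 CON, EC2 CON, EC1 TM and EC2 TM. Beyond it, the depth was 0.552 and 0.605 of the coding exons in CON and 0.427 and 0.494 in TM. The coding exons were 1.81-fold and 1.87-fold deeper with TM, and the stretch beyond the short ends 1.40-fold and 1.53-fold. Over 2058 genes with enough sites, the ratio of annotated 3′ UTR depth to exon depth was lower with TM in both mice for 31.2% and higher in both for 20.3%, so the pattern of Cd47, at 0.537 and 0.605 in CON and 0.464 and 0.441 in TM, was common.

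Icam2 (chr11:106377656-106388075, minus strand), the marker used for the second cell selection, had the opposite direction. Its median exonic depth was 738.5 reads in EC1 CON, 1023 in EC2 CON, 437 in EC1 TM and 981 in EC2 TM. The scaled levels were 555 and 713 in CON and 332 and 473 in TM, so both TM libraries lay below both CON libraries, as for 25.1% of all genes. The ratio of CON to TM was 1.67 in EC1 and 1.51 in EC2. The log2 difference was -0.67 (SE 0.29), which did not pass with limma (adjusted p = 0.146) and passed with the mouse as a block (limma adjusted p = 0.0236). Its counts of 8, 13, 8 and 11 did not pass the filter on low counts. Pecam1, which encodes CD31, the other selection marker, had a log2 depth difference of -0.66. This did not pass with limma (adjusted p = 0.202) and passed with the mouse as a block (limma adjusted p = 0.0251). Pecam1 counts gave a log2 fold change of -0.44 that did not pass (edgeR adjusted p = 0.436). The median log2 depth difference over the 12 endothelial markers was -0.32. The part of these shifts in the Icam2 value was not tested.

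The selectins did not follow Icam1 and Vcam1. Selp (chr1:164115264-164150026, plus strand) was the most abundant of the 8 genes in CON, with median depths of 1474.5 reads in EC1 CON, 1966.5 in EC2 CON, 1391.5 in EC1 TM and 2752 in EC2 TM. The scaled levels of 1108 and 1370 in CON and 1056 and 1327 in TM overlapped, and the log2 difference was -0.06 (SE 0.31, limma adjusted p = 0.940). Selp counts were 70, 74, 76 and 240, so that EC2 TM stood apart, and the log2 fold change of 0.67 (SE 0.34) did not pass (edgeR adjusted p = 0.262). Without EC2 TM that fold change was 0.07 (edgeR adjusted p = 0.966), and 624 exonic bases of Selp lie opposite exons of Gm16548 and Gm16587.

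Sele (chr1:164048234-164057677, plus strand), whose E-selectin protein is made on demand by activated endothelium, was the lowest of the genes tested by depth. It had 3, 6, 8 and 4 listed exonic sites, with median depths of 40 reads in EC1 CON, 71 in EC2 CON, 31 in EC1 TM and 98.5 in EC2 TM. The scaled levels were 30.1 and 49.5 in CON and 23.5 and 47.5 in TM, which overlapped, and the log2 difference was -0.21 (SE 0.36, limma adjusted p = 0.797). The sign of the difference depended on the library left out for both selectins.

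**Figure D4:**
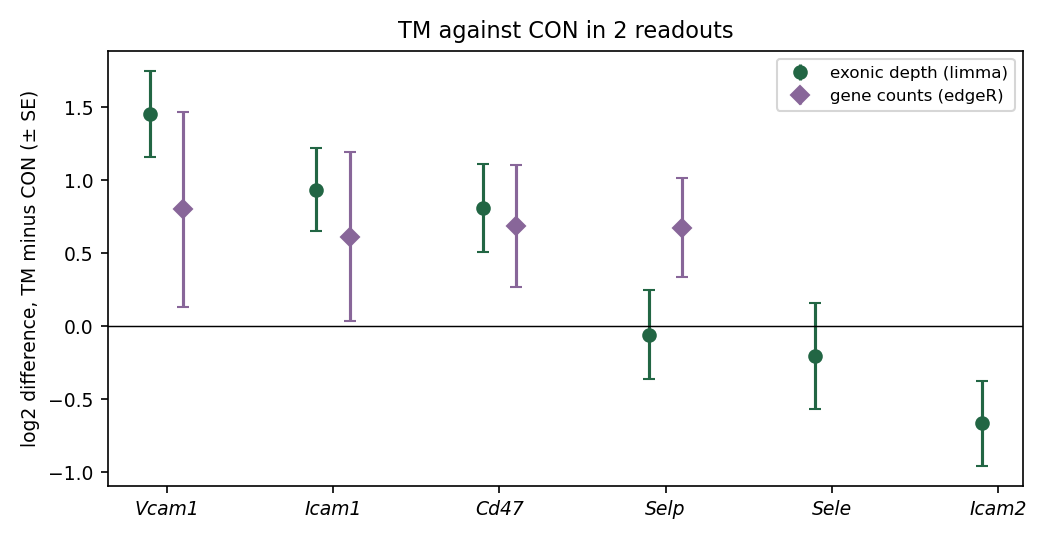
The log2 difference of TM minus CON by exonic depth (circles) and by gene counts (diamonds), with bars for ± 1 SE of the fit over 2 libraries per group. Vcam1 and Icam1 lie highest by depth, at 1.45 and 0.93, and Icam2 lowest, at -0.67. Cd274 and Cd40 are left out because no depth difference could be fitted, and Sele and Icam2 counts did not pass the filter.

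The genes whose 4 depth values ran most like those of each member were drawn from all 6836 genes by the distance between centred log2 values over the 4 libraries. They were Lonp1, Sepw1 and Trim26 for Vcam1, Taok3, Chmp4b and Fam13b for Icam1, and 4930453N24Rik, Xpot and Mybbp1a for Cd47. For Icam2 they were Ccnd1, Tubb4b and Hsp90b1, for Selp Hiatl1, Rbm25 and Pcbp1, and for Sele Ttf1, Chst14 and Ndufa5. With 4 points such likeness is a description only.

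Neighbouring genes of the same pathways were read from lists. Among the other adhesion and transmigration genes, 25 of 26 were in the count table, and 0 of the 15 tested by depth and 0 of the 15 tested by counts were called (limma and edgeR), with a median log2 depth difference of -0.25 beside 0.01 over all genes. At an unadjusted p under 0.05 there were 6 by limma and 2 by edgeR, and DESeq2 called 0. With the mouse as a block, limma called 2 of the 15 higher by depth, Pvr and Ezr, and 4 lower, Pecam1, Cd34, Jam3 and Esam. Among 22 other checkpoint and co-stimulatory ligands, 2 of 7 tested by depth and 2 of 6 tested by counts were called higher and none lower. They were Lgals9 and H2-T23 in both readouts, and with the mouse as a block 3 more, Cd276, Cd1d1 and Cd24a, were called lower by depth. DESeq2 called neither by counts (adjusted p = 0.209 for Lgals9 and 0.101 for H2-T23), and called Thbs1 (DESeq2 adjusted p = 0.0365). Lgals9 encodes galectin-9, and its scaled depth was 510 and 623 in CON and 2026 and 1734 in TM (log2 difference 1.73, limma adjusted p = 1.13e-04). With counts of 4 and 13 in CON, beside 38 and 44 in TM, CON alone would not have passed the low-count filter. The count call of Lgals9 therefore leaned on the group where it was high. H2-T23 encodes the class I molecule Qa-1, a ligand of NKG2A, and belongs to a family of near-identical genes among which reads can be split. Its scaled depth was 233 and 192 in CON and 1083 and 1295 in TM (log2 difference 2.48, limma adjusted p = 1.29e-07).

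Of 31 regulators and signalling partners, 2 of 22 were called higher by depth and 2 of 18 by counts, and none lower, and with the mouse as a block 5 were called higher by depth and 1 lower. The depth calls included Jak2, a kinase of cytokine receptors. Its scaled depth was 62.4 and 76.6 in CON and 203 and 176 in TM (log2 difference 1.45, limma adjusted p = 4.97e-04). The count calls were Irf1, with 9, 6, 41 and 65 counts, and Nfkbia, with 1, 5, 13 and 36. Both passed the low-count filter through TM alone, so by counts they could only be called higher. DESeq2 called Irf1 (adjusted p = 0.0218) and not Nfkbia (adjusted p = 0.278). The scaled depth of Nfkbia, the inhibitor of NF-κB, was 306, 336, 309 and 422 and did not pass (limma adjusted p = 0.778), so its 2 readouts differed.

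Of 12 leukocyte-side receptors, 0 of 4 were called by counts (edgeR, 1 at an unadjusted p under 0.05, and 0 by DESeq2) and 1 of 2 by depth. The depth call was Sirpa, the receptor for CD47, which had a scaled depth of 160 and 205 in CON and 61.5 and 61.7 in TM (log2 difference -1.56, limma adjusted p = 2.30e-04). Marker lists moved with the groups in part. The endothelial markers had 1 call lower of 12, Cldn5, and the lymphatic markers 1 of 4, Prox1, both by depth and by edgeR on counts (DESeq2 adjusted p = 0.162 and 0.0795), and with the mouse as a block 4 and 2 were called lower by depth. The summed scaled depth of 10 fibroblast and smooth muscle markers was 598 and 940 in CON, over 8 and 9 genes with a listed site, and 204 and 322 in TM, over 5 and 8. Their summed counts did not show this, at 585 and 521 per 1e6 counts in CON and 588 and 487 in TM. Most of these counts came from Tagln alone, with 548 and 553 raw counts in CON and 534 and 761 in TM, so they say little about the other markers. The summed depth of 5 platelet and megakaryocyte markers was 108 and 162 in CON and 81.9 and 126 in TM, and that of 6 epithelium markers was 30.7 to 40.3 over all libraries. Their part in the differences of the 8 genes was not tested, and fewer cells of a type and less RNA per cell cannot be told apart in bulk RNA.

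Altered bases within the 8 genes were compared next, since ADAR1 carries out A-to-I editing, which appears as A-to-G in plus-strand genes and as T-to-C in minus-strand genes. A genomic variant can give the same altered base, and the study compared CON with TM of each mouse to reduce this influence. Editing and genomic variants were not told apart here. The study's criteria were applied: 5 reads or more at the base, 3 or more of them altered, and a rate between 0.05 and 0.95. By these, 20 distinct sites passed in at least 1 library. The libraries EC1 CON, EC2 CON, EC1 TM and EC2 TM held 6, 7, 11 and 14 of them. They lay in Icam1 (9 sites), Vcam1 (6), Cd47 (3), Selp (1) and Cd274 (1), with 0 in Icam2, Sele and Cd40. All 9 Icam1 sites lay in intronic B1 elements, a SINE family in which editing is common, and none of the other 11 lay in a SINE.

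A site counted as different where the rate differed by at least 0.05 in a mouse, with a library that did not list the site taken as a rate of 0. In EC1, 3 sites were higher in CON and 7 higher in TM, where 43.5% and 28.6% of 15942 passing sites were. In EC2, 4 were higher in CON and 10 higher in TM, where 37.2% and 33.4% of 16638 passing sites were. Together 17 of the 20 sites differed in at least 1 mouse. The 20 sites were taken over both mice and fewer passed in either mouse alone, so 20 is not the base for the counts of 1 mouse. The CON library did not list the site for 2 of the 7 TM-higher sites of EC1 and 7 of the 10 of EC2, and the TM library did not for 1 of the 3 CON-higher sites of EC1, so no rate was measured there. The genes with most TM-higher sites, Icam1 and Vcam1, were also deeper in TM. Of the reads themselves, Fisher's exact test with adjustment over all sites called 0 of 8 member sites in EC1 and 0 of 8 in EC2, with 1 and 0 at an unadjusted p under 0.05, where 0.898% and 2.37% of sites were called higher in CON and 0.0612% and 0.0865% higher in TM.

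Icam1 showed how shallow most intronic sites were. At chr9:21018452, in a B1_Mur2 element, altered reads were 3 of 5 in EC1 CON, 4 of 10 in EC1 TM and 6 of 19 in EC2 TM, and the site was not listed in EC2 CON. At chr9:21018355, in the same kind of element, they were 1 of 5, 3 of 5 and 3 of 17, so that it met the criteria as higher in TM in both mice. At chr9:21020521, in a B1_Mur1 element, they were 3 of 14 in EC2 CON and 1 of 26 in EC2 TM. Where both libraries of a mouse listed a site with 5 reads or more, none of these differences passed Fisher's exact test, and the EC2 differences at chr9:21018452 and chr9:21018355 could not be tested.

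Vcam1 held the deepest passing sites, and both lie in its last exon, exon 9 of 9. The sequences around them are shown because both sites met the criteria as higher in TM in both mice. They are written along the transcript (vM21, mm10), 29 bases long, with the altered adenosine in capitals.
Vcam1 coding site, chr3:116111020, minus strand: aagaacataacaagAactatttttcgccc
Vcam1 3′ UTR site, chr3:116110496, minus strand: ttaatgcttcttagAaaagtttaatatta
At the coding site the altered reads were 5 of 33 (15.2%, 95% Wilson interval 6.65% to 30.9%) in EC1 CON and 18 of 73 (24.7%, 16.2% to 35.6%) in EC2 CON. They were 51 of 116 (44.0%, 35.3% to 53.0%) in EC1 TM and 71 of 202 (35.1%, 28.9% to 42.0%) in EC2 TM. The site was named for a higher TM rate in each mouse, so that direction was fixed by the choice. The 2-sided Fisher's exact test gave p = 0.00226 in EC1 (adjusted 0.146) and p = 0.11 in EC2 (adjusted 0.716).

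At the 3′ UTR site the altered reads were 11 of 26 (42.3%) in EC1 CON, 19 of 58 (32.8%) in EC2 CON, 35 of 65 (53.8%) in EC1 TM and 74 of 157 (47.1%) in EC2 TM. A higher TM rate in each mouse was again fixed by the choice of site. Unadjusted Fisher's exact p was 0.360 in EC1 and 0.0643 in EC2. Another Vcam1 site, in an intron at chr3:116121135, was listed in TM alone, with 3 of 8 and 3 of 6 altered reads. Intervals cover counting error only, and whether the altered Vcam1 bases are edited or genomic variants was not tested.

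Cd47 carried an intronic site at chr16:49884163 that was altered in most reads of every library. The altered reads were 19 of 24 (79.2%) in EC1 CON, 25 of 28 (89.3%) in EC2 CON, 52 of 59 (88.1%) in EC1 TM and 80 of 96 (83.3%) in EC2 TM, with wide overlap of the intervals. A second intronic site, at chr16:49872299 in an L1_Mur3 element, was altered in 20 of 20, 8 of 9, 9 of 9 and 24 of 24 reads. The passing site of Cd274, at chr19:29377664, had 3 altered of 33 reads in EC1 TM and was not listed in the other libraries.

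**Figure D5:**
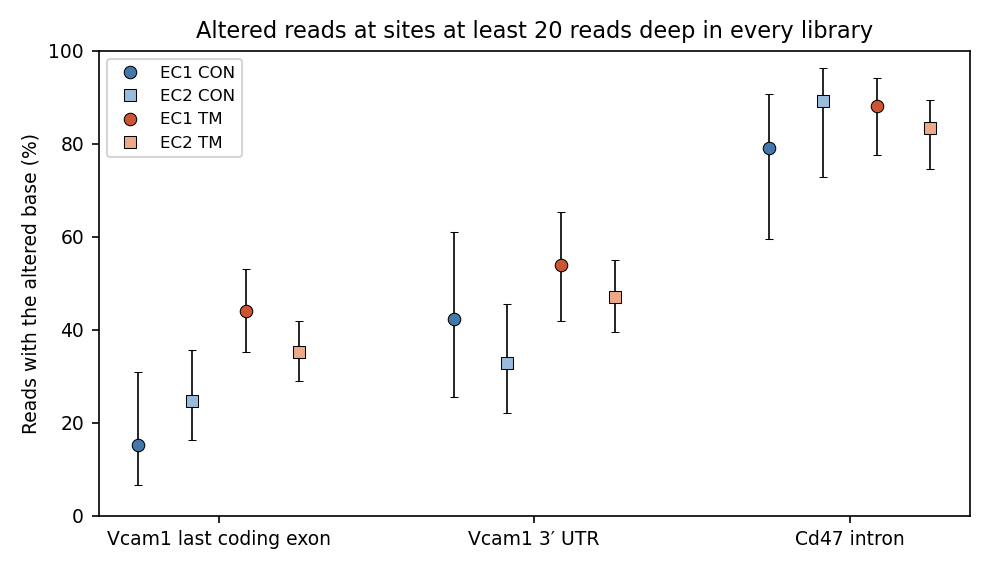
Percentage of reads with the altered base, by library, with 95% Wilson intervals. Shown are the 3 sites of the 8 genes that passed the study's criteria and were at least 20 reads deep in every library. Both Vcam1 sites run higher in TM, the direction for which they were named, and at the Cd47 site the 4 values lie between 79.2% and 89.3%.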

How the data were processed

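RNA-seq was measured in 4 libraries, 2 per group. Raw counts per gene were deposited by the authors, from Trimmomatic (0.38) trimming, STAR (2.6.1a) alignment to mm10 and default HTSeq (0.11.2) counting. The authors called altered bases with BCFtools, and deposited, per site, reference and altered read counts and the rate as a fraction. Sites with no called alteration in a library are not listed there. The members and lists were chosen with earlier results of these data known.

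Counts were tested with edgeR (4.0.16) quasi-likelihood fits after its default filter, and DESeq2 (1.42.0) was an alternative. Rows that name no gene took 99.1% to 99.2% of reads and stayed out of library sizes. Depth is the median over listed exonic sites per 1e8 library reads, on a log2 scale without pseudocount, tested with limma (3.58.1). Calls are at a Benjamini-Hochberg adjusted p of at most 0.05 over all genes. The CON and TM cells of each mouse share a donor. Their deviations correlated at 0.163 in counts and 0.10 in depth over genes. All 8 genes were named by rule, and list genes where called, at most 4 per list and readout. P-values of edgeR, DESeq2 and limma measure the spread between 2 mice per group, and the same 2 mice supplied both groups. Fisher's exact tests compare the reads of 2 libraries of 1 mouse, so they hold no spread between mice and do not compare the conditions. Columns of the site table carry the mouse's name alone or with a suffix, and these were read as CON and TM by matching values with the study's own site list. The values of 1 list gene are not reported here.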

Additional observations from a re-analysis of the deposited data

How the results depend on the processing

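The values at sites seen in both libraries of one mouse and the 3′ UTR ratios were chosen after seeing the data. By counts, 1 gene (Cd274) was called, and 1 without any one library. The count was 0 with DESeq2 and a replicate block, where Cd274 was given no adjusted p, and 0 with at least 10 counts in every library, which removes Cd274 because CON had none. By depth, 2 genes were called, and 4 with the replicate block or with medians centred at 0 (Icam1, Vcam1, Cd47 and Icam2). The count was 1 with at least 1 site per library, 0 with at least 10 (which leaves out Icam1 and Vcam1), 1 with sites listed in all libraries, 1 with 3′ UTR sites, 0 with intron sites, and 1 to 3 without one library. Without one library, the depth difference ran from -0.71 to 0.30 for Sele (0.15 without CON replicate 2, 0.30 without TM replicate 1) and from -0.22 to 0.11 for Selp (0.096 without CON replicate 2, 0.11 without TM replicate 1). The 17 altered sites became 6 at a depth of at least 20, 7 with at least 5 altered reads, 9 when listed in both libraries, 0 by Fisher's exact test, and 10 to 14 with a single mouse. Over all genes, edgeR called 612 by counts, 1184 with the block, and DESeq2 365 and 408. Limma called 809 by depth, 1326 with the block, 1354 centred, 539 with at least 10 sites, 381 with shared sites, 205 with 3′ UTR sites, 78 with intron sites, 371 without TM replicate 1 and 391 without TM replicate 2. Of the depth calls, 437 were higher and 372 lower, 334 and 578 without CON replicate 1, and 679 and 228 without CON replicate 2. The causes were not tested where no construction is named. With n = 2 per group, site lists that depend on called bases and counts under 100 for 7 of the 8 genes, small differences could not be detected.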
